A study of Rattus norvegicus with 6 samples.

Results

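Glucose uptake and glycolysis were followed through 44 genes, chosen as the transporters, enzymes and enzyme regulators that carry glucose to pyruvate, lactate and acetyl-CoA. All 44 had a probe set that names only them, among 14506 genes measured. RNA of neurospheres, floating cell clusters grown out of the dispersed carotid body of adult rats, was measured on 6 Affymetrix arrays. The carotid body lies where the carotid artery divides and senses oxygen in the blood. All spheres were kept for 10 days in neural crest medium. The 3 samples labelled undifferentiated received EGF, ET-1, FGF and IGF-1 as mitogens in normal oxygen, and the 3 labelled differentiated received no mitogens and were kept at 3% oxygen, so mitogens and oxygen changed together and cannot be told apart. The labels do not state the strain, nor whether samples came from separate cultures, pooled animals or one culture. The p-values therefore measure the spread between these samples alone, and that spread may be technical. Values are log2 values as the authors deposited them, and every change is the mean of the arrays labelled differentiated minus that of the arrays labelled undifferentiated.

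Glucose enters cells through facilitative transporters of the Slc2a family, is trapped by hexokinase, and is committed to glycolysis by phosphofructokinase. The lower part of the pathway turns the triose phosphates into pyruvate, which lactate dehydrogenase reduces to lactate or the pyruvate dehydrogenase complex oxidises to acetyl-CoA. Most steps are served by several isoforms with different tissue distribution and regulation, and many of these genes are known targets of hypoxia-inducible factors. Carotid body glomus cells are known for a metabolism that is sensitive to oxygen.

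In the arrays labelled differentiated, transcripts of the glucose transporters Slc2a1 and Slc2a3, all 3 phosphofructokinases, both aldolases, Tpi1, Pgam1, Eno2, Ldha, Pfkfb2, Pfkfb3, Pdk1 and the lactate carrier Slc16a1 were lower, while Ldhb, Hk2, Pdk3, Slc2a12 and Slc16a7 were higher. Of the 44 genes 5 rose and 15 fell at a limma adjusted p under 0.05, and 24 did not pass. The called genes were 45.5% of the 44, where 29.5% of all genes passed, 14.7% higher and 14.9% lower. Among the members the shares were 11.4% higher and 34.1% lower. The members were chosen with earlier results of these data known, so these shares are a description and no test of the list. The median change was -0.16 over the members and 0.06 over all genes. A fall of at least 1 on the log2 scale was called in 4 members and a rise of that size in 1, where 4.8% and 3.2% of all genes reached it. In 22 members, 50% of them, the groups did not overlap, where 42.3% of all genes showed none.

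The labels went against a check by Th. Tubb3 and Gfap, the neuronal and glial markers of the same check, did not pass. They changed by -0.002 and 0.19 (limma adjusted p = 0.995 and 0.373). Th, tyrosine hydroxylase, which makes the dopamine precursor and marks glomus cells, averaged 13.76 ± 0.16 (SD, n = 3) with the label undifferentiated and 10.90 ± 0.37 (SD, n = 3) with the label differentiated, a fall of 2.86 (limma adjusted p = 5.09e-07). The groups are therefore named by their labels. Were the labels exchanged between the groups, every change given here would have the opposite sign. Whether they were exchanged was not tested. All 12 glomus cell markers fell (median -2.64; mean level over the list 10.54 to 10.72 in the arrays labelled undifferentiated and 7.63 to 7.99 in the others). Of 8 fibroblast markers 7 rose and of 7 measured markers of dividing cells all 7 rose (medians 1.10 and 1.20). Of 10 neuronal markers 1 rose, 4 fell and 5 did not pass. Snap25 and Syt1, of synaptic vesicle release, fell by 2.04 and 1.75, and Elavl3 and Map2 by 1.10 and 0.85. The neurofilament Nefl rose by 1.21. The 5 that did not pass were Tubb3, Stmn2, Elavl4, Nefm and Rbfox3. In the lists for glia, smooth muscle, skeletal muscle, endothelium, macrophages and erythroid cells 3, 4, 1, 0, 2 and 0 genes rose and 1, 1, 0, 2, 2 and 0 fell. In bulk RNA, fewer cells of a type and less RNA per cell cannot be told apart, and the part of these marker changes in the changes below was not tested.

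**Figure D1:**
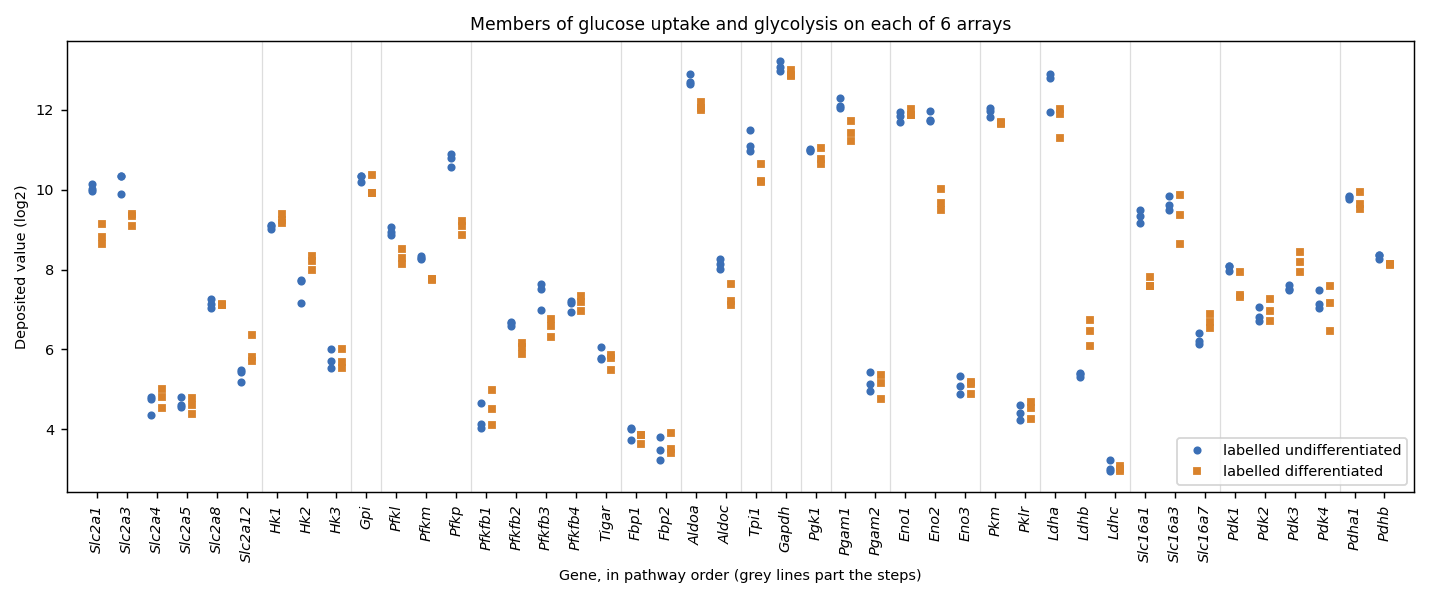
Deposited log2 values of the 44 members on each of the 6 arrays, in pathway order, with circles for arrays labelled undifferentiated and squares for those labelled differentiated. Eno2, Pfkp and Slc16a1 show a clear gap with the circles above, and Ldhb a gap with the squares above; levels of different genes are not comparable, since each probe set has its own response.

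Upstream sequences were available for 40 of the 44 genes, at 44 annotated starts, in the RefSeq promoter table of GRCr8. Those of the 5 members that changed by at least 1 on the log2 scale, and of Ldha as the partner of Ldhb, are given here as the 250 bases before the annotated start, 5′ to 3′ on the strand of the gene. Capitals mark the letters ACGTG and GCGTG on either strand, the core letters of sites that hypoxia-inducible factors are known to bind.
Slc2a1 (GRCr8, chr5:138002272-138002521, + strand): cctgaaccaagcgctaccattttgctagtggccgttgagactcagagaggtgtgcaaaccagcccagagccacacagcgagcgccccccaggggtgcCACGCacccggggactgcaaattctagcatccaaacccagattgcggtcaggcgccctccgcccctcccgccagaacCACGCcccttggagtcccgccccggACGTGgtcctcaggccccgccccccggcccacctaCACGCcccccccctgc
Pfkp (GRCr8, chr17:68639563-68639812, + strand): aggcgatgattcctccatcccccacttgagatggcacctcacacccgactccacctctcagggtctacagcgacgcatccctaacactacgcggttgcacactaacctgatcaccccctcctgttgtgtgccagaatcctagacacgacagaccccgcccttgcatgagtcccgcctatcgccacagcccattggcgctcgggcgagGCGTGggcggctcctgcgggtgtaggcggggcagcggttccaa
Eno2 (GRCr8, chr4:159267221-159267470, - strand): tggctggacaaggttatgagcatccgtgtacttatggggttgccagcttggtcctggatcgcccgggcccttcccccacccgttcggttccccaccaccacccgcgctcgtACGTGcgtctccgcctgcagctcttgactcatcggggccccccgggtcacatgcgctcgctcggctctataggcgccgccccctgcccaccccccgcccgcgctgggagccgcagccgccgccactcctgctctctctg
Slc16a1 (GRCr8, chr2:194812410-194812659, + strand): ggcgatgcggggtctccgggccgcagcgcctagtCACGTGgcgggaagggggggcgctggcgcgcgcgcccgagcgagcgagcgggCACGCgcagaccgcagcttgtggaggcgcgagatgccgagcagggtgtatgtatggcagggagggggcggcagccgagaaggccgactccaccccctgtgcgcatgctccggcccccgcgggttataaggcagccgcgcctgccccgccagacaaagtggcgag
Ldha (GRCr8, chr1:106507842-106508091, + strand): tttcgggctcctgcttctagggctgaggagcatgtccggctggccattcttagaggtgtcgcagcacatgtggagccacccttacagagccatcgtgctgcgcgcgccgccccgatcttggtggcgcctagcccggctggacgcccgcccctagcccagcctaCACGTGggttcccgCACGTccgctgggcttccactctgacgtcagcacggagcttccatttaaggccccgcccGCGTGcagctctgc
Ldhb (GRCr8, chr4:177177409-177177658, - strand): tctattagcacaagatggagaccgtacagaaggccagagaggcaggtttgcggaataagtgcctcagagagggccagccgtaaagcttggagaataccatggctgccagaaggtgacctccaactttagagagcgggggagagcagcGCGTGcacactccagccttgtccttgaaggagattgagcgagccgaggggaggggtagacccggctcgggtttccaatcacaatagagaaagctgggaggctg

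Of these windows, that of Slc2a1 held 1 match to ACGTG and 3 to GCGTG, that of Eno2 1 to ACGTG, that of Pfkp 1 to GCGTG and that of Ldhb 1 to GCGTG. Slc16a1 held 2 matches to ACGTG and Ldha 3, in each case 2 of them the opposite strands of a CACGTG, the letters known as an E-box, and each held 1 match to GCGTG. Over all 33469 promoter windows of this length 16.6% held ACGTG, 25.9% GCGTG and 36.7% either, and 5.6% held CACGTG. Among the 16 starts of members that fell, 9 (56.2%) held ACGTG and 12 (75%) held either; among the 23 of members that did not pass, 5 (21.7%) and 10 (43.5%); and among the 5 of members that rose, 2 (40%) and 3 (60%). The letters are rich in G and C, and so were the windows: the median share of G and C was 63.6% for members that fell, 57.2% for those that did not pass, 49.6% for those that rose and 51.2% for all promoters. These matches are letters in a window and no measure of binding.

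The facilitative glucose transporters divided by isoform. Slc2a1, the basal transporter GLUT1, read 10.02, 9.97 and 10.15 in the arrays labelled undifferentiated and 8.64, 9.15 and 8.82 in those labelled differentiated. The groups did not overlap, and Slc2a1 fell by 1.18 ± 0.13 (SE), which is 2.26-fold (limma adjusted p = 4.43e-05). Slc2a3, the high-affinity transporter GLUT3 known from neurons, read 9.89, 10.35 and 10.33 against 9.10, 9.40 and 9.34 and fell by 0.91 ± 0.14 (adjusted p = 0.000439). Slc2a12, the transporter GLUT12, went the other way, from 5.18, 5.43 and 5.48 to 5.81, 5.72 and 6.36. Its groups did not overlap either, the highest array being differentiated replicate 3, and it rose by 0.60 ± 0.17 (adjusted p = 0.0228). Leaving out undifferentiated replicate 1 or 2 ended that call (changes of 0.51 and 0.63, adjusted p = 0.0884 and 0.0502), as did leaving out differentiated replicate 3 (change of 0.40, adjusted p = 0.0787).

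The remaining transporters did not pass. The change was -0.03 ± 0.10 for Slc2a8, an intracellular transporter, with a 95% interval of -0.25 to 0.19. It was 0.14 ± 0.17 for Slc2a4, the insulin-responsive transporter of muscle and fat, and -0.07 ± 0.15 for the fructose transporter Slc2a5. The arrays of both groups overlapped in all 3 genes. Slc2a4 and Slc2a5 lay low, at the 33.6th and 32.4th percentile of gene means, and the files give no detection call to tell such values from background.

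Of the 3 hexokinases, which phosphorylate glucose, 1 passed the test. Hk2, the inducible isoform of muscle, read 7.16, 7.70 and 7.73 in the arrays labelled undifferentiated and 7.98, 8.35 and 8.22 in those labelled differentiated, without overlap, and rose by 0.65 ± 0.16 (SE, limma adjusted p = 0.00854). Undifferentiated replicate 1 was the lowest, and the rise was 0.47 without it. Hk1, the main isoform of brain, read 9.01, 9.10 and 9.11 against 9.16, 9.23 and 9.38; its groups did not overlap, yet the difference of 0.18 ± 0.10 did not pass (adjusted p = 0.191). The within-array difference of Hk1 and Hk2 shifted by -0.47 ± 0.18 (exact permutation p = 0.1). Hk3, of blood cells, differed by -0.01 ± 0.16. Gpi, which turns glucose 6-phosphate into fructose 6-phosphate, differed by -0.22 ± 0.13 (adjusted p = 0.255): differentiated replicate 2 read 10.37, above the arrays labelled undifferentiated, and the other 2 arrays of its group 9.93 and 9.91. Without that array Gpi passed at -0.37 (adjusted p = 0.0275).

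All 3 phosphofructokinase genes, whose products form the tetramer that commits sugar to glycolysis, fell. Pfkp, the platelet type also made in brain, read 10.57, 10.80 and 10.89 in the arrays labelled undifferentiated and 9.21, 9.08 and 8.88 in those labelled differentiated, and fell by 1.70 ± 0.12 (SE), which is 3.24-fold (limma adjusted p = 1.48e-06). Pfkl, the liver type, read 8.88, 8.93 and 9.08 against 8.13, 8.52 and 8.28 and fell by 0.65 ± 0.12 (adjusted p = 0.0013). Pfkm, the muscle type, was the tightest, at 8.26, 8.35 and 8.29 against 7.75, 7.77 and 7.76, and fell by 0.54 ± 0.09 (adjusted p = 0.000749). Groups did not overlap in any of these genes. The within-array difference of Pfkm and Pfkp moved from -2.31, -2.45 and -2.60 to -1.47, -1.31 and -1.11, so the fall of Pfkp was larger by 1.16 ± 0.13 (SE). An exact permutation test over the arrays gave p = 0.1, two-sided, the smallest that 3 arrays against 3 can give. The differences of Pfkl and Pfkm overlapped between the groups (difference of the changes -0.11 ± 0.13, exact p = 0.4).

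The bifunctional Pfkfb enzymes set the level of fructose 2,6-bisphosphate, the activator of phosphofructokinase. Pfkfb3, the inducible isoform with the highest kinase activity, read 6.98, 7.52 and 7.64 in the arrays labelled undifferentiated and 6.30, 6.77 and 6.58 in those labelled differentiated and fell by 0.83 ± 0.18 (SE, limma adjusted p = 0.00389). Pfkfb2, the heart isoform, read 6.58, 6.67 and 6.69 against 6.16, 5.89 and 6.06 and fell by 0.61 ± 0.11 (adjusted p = 0.00171). Both pairs of groups were separate. Pfkfb4, another isoform known as a hypoxia target, differed by 0.06 ± 0.12 (95% interval -0.21 to 0.33), with overlapping groups. The within-array difference of Pfkfb3 and Pfkfb4 was -0.17, 0.58 and 0.43 in the first group and -1.03, -0.19 and -0.62 in the second, a shift of -0.89 ± 0.33 (exact permutation p = 0.1). Pfkfb1, the liver isoform, and Tigar, a phosphatase that lowers fructose 2,6-bisphosphate, differed by 0.26 and -0.17 and did not pass. Fbp1 and Fbp2, the fructose bisphosphatases of gluconeogenesis, differed by -0.14 and 0.10.

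Fbp1, Fbp2, Pfkfb1 and Ldhc, the lactate dehydrogenase of testis, were the 4 dim members, with means no higher than the 40th percentile over probe sets (4.44). Ldhc lay below the lower quartile of all 6 arrays and Fbp2 below that of 2. Pklr, Eno3 and Pgam2 also lay low, at percentiles 30.2, 38.9 and 39.4 of gene means. How far any of these genes stood over background is not known here.

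**Figure D2:**
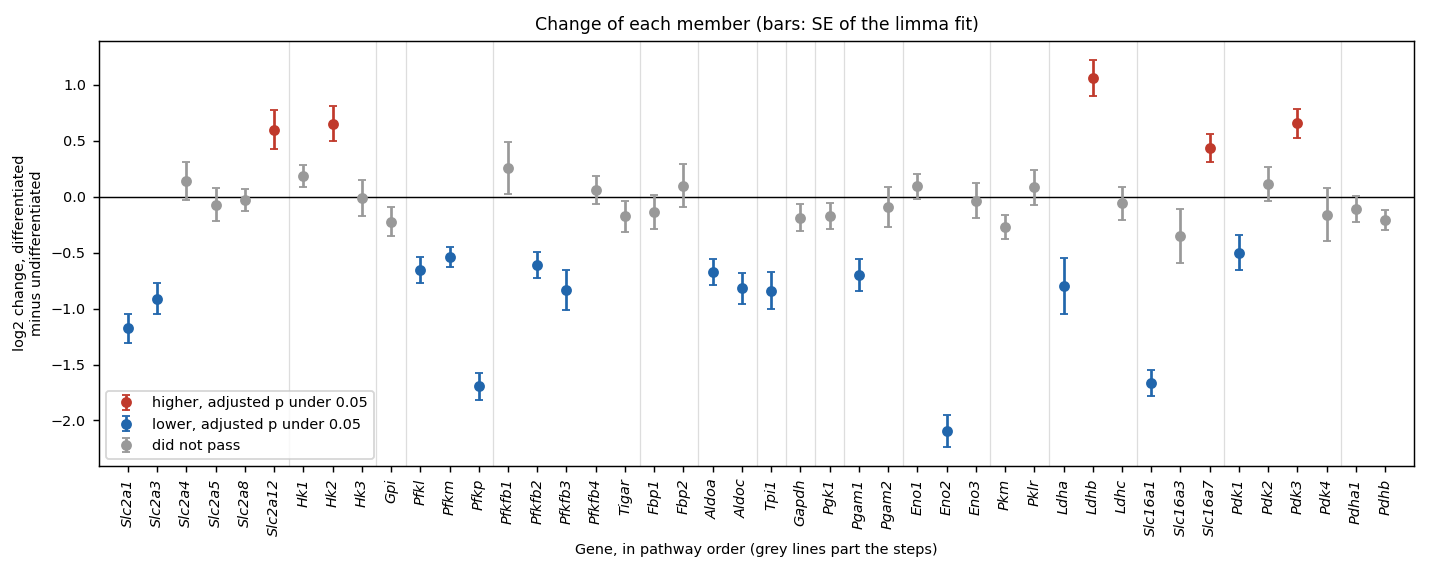
The log2 change of each member, labelled differentiated minus labelled undifferentiated, with bars for the SE of the limma fit, in pathway order; red marks the 5 that rose, blue the 15 that fell and grey the 24 that did not pass. Eno2 at -2.09 is the lowest and Ldhb at 1.06 the highest.

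Aldolase and triose phosphate isomerase, which make and exchange the triose phosphates, fell together. Aldoa, the ubiquitous aldolase, read 12.71, 12.64 and 12.90 in the arrays labelled undifferentiated and 12.04, 12.19 and 12.00 in those labelled differentiated and fell by 0.67 ± 0.12 (SE, limma adjusted p = 0.00126). Aldoc, the brain aldolase, read 8.13, 8.01 and 8.26 against 7.20, 7.64 and 7.11 and fell by 0.82 ± 0.14 (adjusted p = 0.00104). Tpi1 read 10.97, 11.09 and 11.50 against 10.19, 10.65 and 10.21 and fell by 0.84 ± 0.16 (adjusted p = 0.00223). The groups were separate in each gene. The 2 aldolases were not told apart: their within-array difference was 4.58, 4.63 and 4.63 and then 4.84, 4.55 and 4.90, a shift of 0.15 ± 0.11 (exact permutation p = 0.4), which does not show that they moved alike.

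The next steps, which yield ATP and NADH, did not pass. Gapdh, often taken as a reference gene, read 13.07, 12.97 and 13.22 in the arrays labelled undifferentiated and 12.84, 12.99 and 12.86 in those labelled differentiated, a difference of -0.19 ± 0.12 (SE, limma adjusted p = 0.298, 95% interval -0.46 to 0.08). Its 16 probe sets gave -0.20 to -0.17. Rat Gapdh has many processed copies in the genome, and the probe sets can share probes, so they are no independent measurements. Pgk1 read 10.98, 11.01 and 10.99 against 10.64, 11.05 and 10.77, a difference of -0.17 ± 0.12 (adjusted p = 0.331, 95% interval -0.43 to 0.09). In both genes differentiated replicate 2 overlapped the arrays labelled undifferentiated. Pgam1, the ubiquitous mutase of the following step, fell by 0.70 ± 0.14 (adjusted p = 0.00301), from 12.04, 12.10 and 12.31 to 11.41, 11.72 and 11.22, without overlap. A second Pgam1 probe set read 5.22 and 5.02 on average and differed by -0.20 (adjusted p = 0.425 over all probe sets). The muscle isoform Pgam2 differed by -0.09 ± 0.18.

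Enolase showed the widest split between isoforms. Eno2, the neuronal enolase also made by neuroendocrine cells, read 11.75, 11.73 and 11.98 in the arrays labelled undifferentiated and 9.50, 10.02 and 9.66 in those labelled differentiated, and fell by 2.09 ± 0.14 (SE), which is 4.26-fold (limma adjusted p = 9.81e-07). Eno1, the ubiquitous isoform, read 11.86, 11.70 and 11.94 against 11.87, 12.03 and 11.88 and differed by 0.09 ± 0.11 (adjusted p = 0.594, 95% interval -0.15 to 0.34). Thus Eno2 was lower in every array labelled differentiated by a wide gap while the Eno1 groups overlapped. Within an array, Eno1 minus Eno2 went from 0.11, -0.03 and -0.05 to 2.38, 2.00 and 2.21, a shift of 2.19 ± 0.12, or 4.55-fold in their ratio (exact permutation p = 0.1). With quantile normalization Eno1 passed as higher, at 0.31 (adjusted p = 0.0299), and its 3 probe sets gave 0.08 to 0.09 without it. The muscle enolase Eno3 differed by -0.03 ± 0.15.

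Pkm, the pyruvate kinase of muscle, brain and dividing cells, read 11.96, 11.82 and 12.05 in the arrays labelled undifferentiated and 11.68, 11.70 and 11.64 in those labelled differentiated. The groups did not overlap, but the difference of -0.27 ± 0.11 (SE) did not pass (limma adjusted p = 0.0811). It passed without undifferentiated replicate 2, at -0.33 (adjusted p = 0.033), and shrank to -0.03 with quantile normalization. The 3 Pkm probe sets gave -0.28 to -0.26, and they name the gene, not its splice forms. Pklr, of liver and red cells, differed by 0.08 ± 0.16.

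The lactate dehydrogenase subunits moved in opposite directions. Ldhb, the heart-type subunit, read 5.39, 5.40 and 5.30 in the arrays labelled undifferentiated and 6.46, 6.09 and 6.75 in those labelled differentiated, without overlap, and rose by 1.06 ± 0.16 (SE), which is 2.09-fold (limma adjusted p = 0.000384). Ldha, the muscle-type subunit, read 12.79, 11.94 and 12.89 against 11.90, 11.31 and 12.02 and fell by 0.80 ± 0.25 (adjusted p = 0.0317). The Ldha groups overlapped, since replicate 2 was the lowest array of each. The call was lost without undifferentiated replicates 1 and 3 (adjusted p = 0.109 and 0.135), differentiated replicates 1 and 2 (0.0512 and 0.105), with quantile normalization (0.118) and with robust eBayes (0.0501).

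A second Ldha probe set, not used because its mean was lower, was tighter, at 12.48, 12.36 and 12.59 against 11.53, 11.61 and 11.45. Its groups did not overlap, and put in place of the first it fell by 0.95 (adjusted p = 6.89e-05), an alternative chosen after its values were seen. The pair of Ldha and Ldhb was compared with the first Ldha probe set. Within an array, Ldha minus Ldhb moved from 7.40, 6.54 and 7.58 to 5.45, 5.22 and 5.28. That is a shift of -1.86 ± 0.33 or 3.63-fold in their ratio (exact permutation p = 0.1).

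Monocarboxylate transporters, which carry lactate and pyruvate across the membrane with protons, divided in the same manner. Slc16a1, the widely made transporter MCT1, read 9.16, 9.34 and 9.49 in the arrays labelled undifferentiated and 7.60, 7.82 and 7.58 in those labelled differentiated and fell by 1.67 ± 0.11 (SE), which is 3.17-fold (limma adjusted p = 1.09e-06). Slc16a7, the high-affinity transporter MCT2 of neurons, read 6.42, 6.14 and 6.22 against 6.54, 6.68 and 6.88 and rose by 0.44 ± 0.13 (adjusted p = 0.0216). Neither pair of groups overlapped. The Slc16a7 call was lost without undifferentiated replicates 2 and 3 (adjusted p = 0.079 and 0.0706) and differentiated replicate 3 (0.0898). The within-array difference of the pair went from 2.74, 3.20 and 3.27 to 1.06, 1.14 and 0.70, a shift of -2.10 ± 0.21 (exact permutation p = 0.1).

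Slc16a3, the exporter MCT4 of glycolytic cells and a known hypoxia target, was spread widely. It read 9.61, 9.49 and 9.84 against 8.65, 9.87 and 9.37, a difference of -0.35 ± 0.24 (SE, limma adjusted p = 0.333), and differentiated replicate 2 was the highest of all 6 arrays. Without that array Slc16a3 passed at -0.63 (adjusted p = 0.0263), and without differentiated replicate 1 the change was -0.02.

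At the entry to mitochondria, the kinases that switch off pyruvate dehydrogenase also split. Pdk1, known as a hypoxia target, read 7.96, 8.08 and 8.08 in the arrays labelled undifferentiated and 7.36, 7.95 and 7.31 in those labelled differentiated and fell by 0.50 ± 0.15 (SE, limma adjusted p = 0.0302). Pdk3 read 7.49, 7.62 and 7.51 against 7.94, 8.44 and 8.20 and rose by 0.66 ± 0.13 (adjusted p = 0.00217). Groups were separate in both, though differentiated replicate 2 of Pdk1 came within a small step of the lowest array labelled undifferentiated. The Pdk1 call was lost without undifferentiated replicates 2 and 3 (adjusted p = 0.0898 and 0.0914), differentiated replicates 1 and 3 (0.11 and 0.12) and with eBayes without the trend (0.0541). Within an array, Pdk1 minus Pdk3 went from 0.46, 0.46 and 0.58 to -0.58, -0.50 and -0.88, a shift of -1.16 ± 0.12 (exact permutation p = 0.1).

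Pdk2 and Pdk4, the latter induced by fasting in many tissues, differed by 0.11 ± 0.15 and -0.16 ± 0.24. Pdk4 was the most scattered kinase, at 7.15, 6.45 and 7.59 in the arrays labelled differentiated, which enclosed the whole range of the other group. The subunits of the dehydrogenase itself did not pass: Pdha1 differed by -0.11 ± 0.12 (limma adjusted p = 0.558), and Pdhb, whose groups did not overlap at 8.26, 8.36 and 8.37 against 8.13, 8.10 and 8.13, by -0.21 ± 0.09 (adjusted p = 0.113). Their within-array difference shifted by 0.10 ± 0.13 (exact permutation p = 0.7).

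In all, 29 isoform pairs of a step were compared by their within-array differences. No pair can pass 0.05 in this design. Of the 29 pairs, 16 reached the smallest exact p of 0.1, which is 0.181 after Benjamini-Hochberg adjustment over the pairs. That p is reached whenever the groups do not overlap, and 42.3% of all single genes showed no overlap. The share among other gene pairs was not taken. Many pairs share a gene, so the 16 are not separate results. The shift was at least 1 in 10 pairs, all of them with Eno2, Pfkp, Slc2a1, Slc16a1, Ldhb or Pdk3 on a side. Besides those given above, the change of Slc2a1 lay 1.15 ± 0.14 (SE) below that of Slc2a8 and the change of Slc16a1 1.32 ± 0.31 below that of Slc16a3, while Slc2a1 and Slc2a3 were not told apart (-0.26 ± 0.17, exact permutation p = 0.2). Such a shift shows unequal change of 2 probe sets and says nothing of which isoform was the more abundant.

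**Figure D3:**
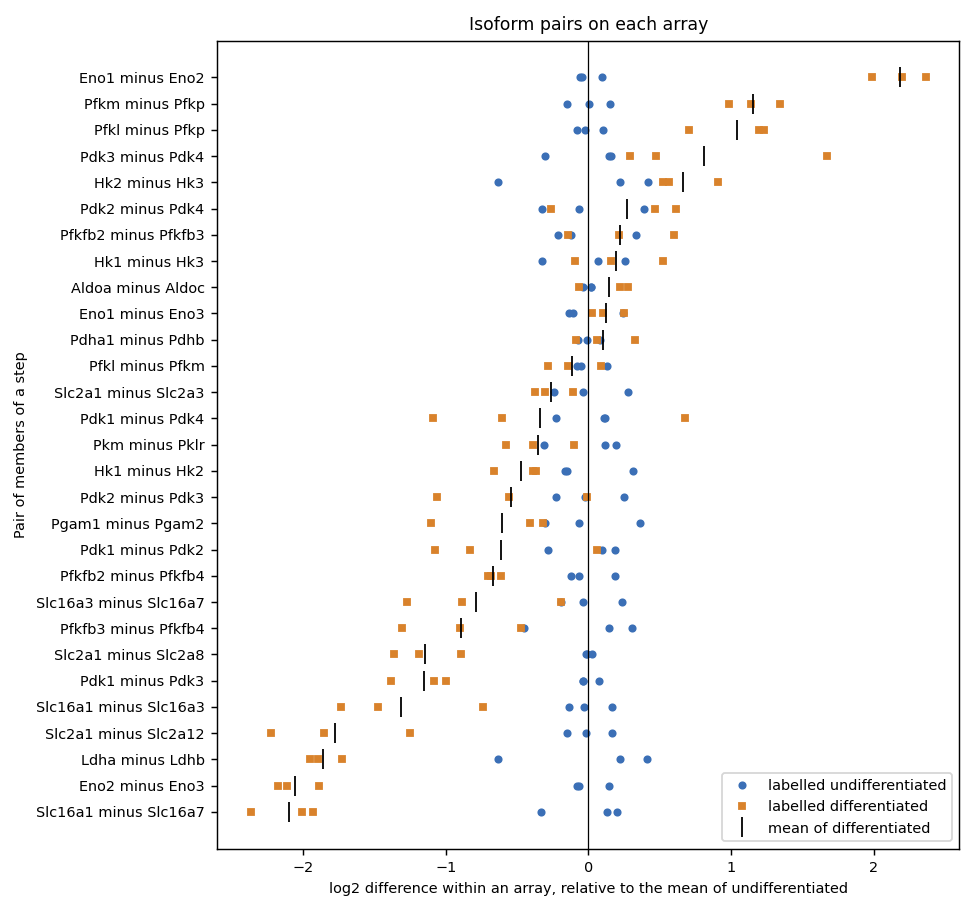
Within-array log2 difference of 29 isoform pairs, relative to the mean of the arrays labelled undifferentiated, with circles for those arrays, squares for arrays labelled differentiated and a tick for the mean of the squares. The squares of Eno1 minus Eno2 lie near 2.19 and those of Slc16a1 minus Slc16a7 near -2.10, clear of the circles, while those of Pdk1 minus Pdk4 enclose the circles.

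Of the 20 called members, 16 were called again whichever array was left out. The 4 that were not were Ldha, Pdk1, Slc2a12 and Slc16a7. For Eno2 the change ran from -2.24 to -1.98 across the 6 omissions, for Pfkp from -1.79 to -1.61, for Slc16a1 from -1.75 to -1.58, for Slc2a1 from -1.31 to -1.06 and for Ldhb from 0.91 to 1.24. Of the 15 members that fell, differentiated replicate 2 was the highest array of its group in 12 (80%), where it was so in 39.9% of all genes that fell. Pfkp, Pfkfb2 and Ldha were the exceptions. On the second Ldha probe set, which was not used, differentiated replicate 2 was the highest of its group, at 11.61.

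**Figure D4:**
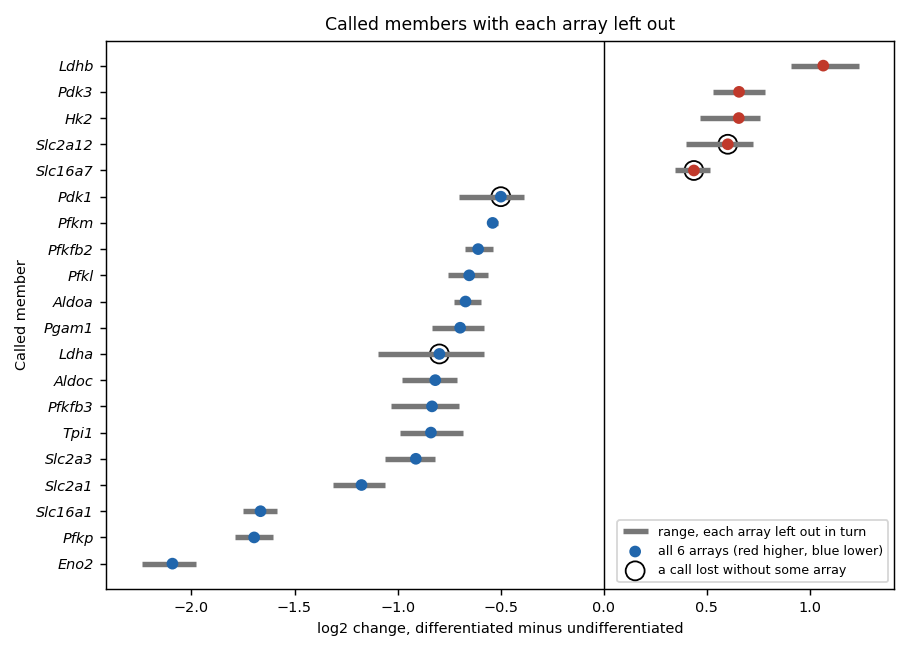
The log2 change of the 20 called members over all 6 arrays (points; red rose, blue fell), with grey bars for its range when each array was left out. Open rings mark Ldha, Pdk1, Slc2a12 and Slc16a7, whose call was lost without some array; no bar crosses 0.

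Genes around the pathway were read from lists of 78 measured genes outside the 44. Of these 10 rose (12.8%) and 28 fell (35.9%), where 14.7% of all genes rose and 14.9% fell. The lists take in 14 regulators and 19 hypoxia targets outside glycolysis, and 12 of the 28 falls lay among those hypoxia targets. Egln3, which fell, stands in both of these lists and is counted once in the totals of 78 and 28. Like the members, the lists were chosen with earlier results of these data known. Among the partners of lactate transport 2 of 6 rose and 2 fell. Bsg, the chaperone that brings Slc16a1 and Slc16a3 to the membrane, fell by 1.20 ± 0.13 (SE, limma adjusted p = 3.42e-05), and Emb, a related chaperone, fell by 0.48 (adjusted p = 0.0251). Slc16a6 and Slc16a4, of the same transporter family, rose by 0.92 and 1.02 from low means of 3.85 and 3.56. Of 6 further genes of the glucose transporter families 0 rose and 2 fell: Slc2a13, a proton-coupled inositol transporter, by 1.08 and Slc2a6 by 0.49. Of 8 other glycolytic enzymes 1 rose and 2 fell, with Galm, which interconverts the anomers of sugars, higher by 0.50. Bpgm, of the bisphosphoglycerate shunt, fell by 0.68 and Pgm1, which joins glycogen to glycolysis, by 0.55.

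The pentose phosphate pathway, which branches off at glucose 6-phosphate, had 0 of 6 measured genes called in either direction by limma. Over all genes 29.5% were called. The median change was 0.08; 1 of the 6 had an unadjusted p under 0.05 (Tkt, which differed by 0.21).

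Of 13 genes of pyruvate entry and gluconeogenesis 0 rose and 4 fell, where 14.7% of all genes rose and 14.9% fell. Pc, which makes oxaloacetate from pyruvate, fell by 2.91 ± 0.09 (SE, limma adjusted p = 8.38e-09). Pdp1, the phosphatase that opposes the Pdk kinases, fell by 1.48 ± 0.12 (adjusted p = 3.36e-06); its relative Pdp2, named after its value was seen, fell by 1.22. Of 7 genes of the shuttles that bring cytosolic NADH to mitochondria 1 rose and 3 fell. Gpd1, the cytosolic glycerol phosphate dehydrogenase, fell by 2.13 ± 0.14 (adjusted p = 6.91e-07) and Mdh1, the cytosolic malate dehydrogenase, by 1.21 ± 0.12 (adjusted p = 1.99e-05), while the transaminase Got1 rose by 0.47 ± 0.10 (adjusted p = 0.0047).

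Regulators of glycolysis were divided: of 14 measured, 4 rose and 4 fell. Hif1a, the hypoxia-inducible factor most tied to glycolytic genes, rose by 1.72 ± 0.11 (SE, limma adjusted p = 6.96e-07), and Myc, which activates many of the same enzymes, rose by 1.02 ± 0.13 (adjusted p = 0.00012). Epas1, the hypoxia-inducible factor of glomus cells, fell by 2.45 ± 0.12 (adjusted p = 1.55e-07). Egln3, a prolyl hydroxylase that hypoxia induces, fell by 3.62 ± 0.25 (adjusted p = 1.10e-06). Epas1 is also counted among the glomus markers, and Egln3 among the hypoxia targets that follow. Of 19 hypoxia targets outside glycolysis 2 rose and 12 fell, with a median of -0.56, where the median of all genes was 0.06, 14.7% of them rose and 14.9% fell; the list was chosen with earlier results of these data known. Adm, the peptide adrenomedullin, fell by 3.88 and Hmox1, which breaks down haem, by 3.16, while the collagen-modifying enzymes Plod2 and Lox rose by 0.85 and 1.71 (adjusted p at most 3.52e-05). The falls lay in the group kept at 3% oxygen per the labels.

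**Figure D5:**
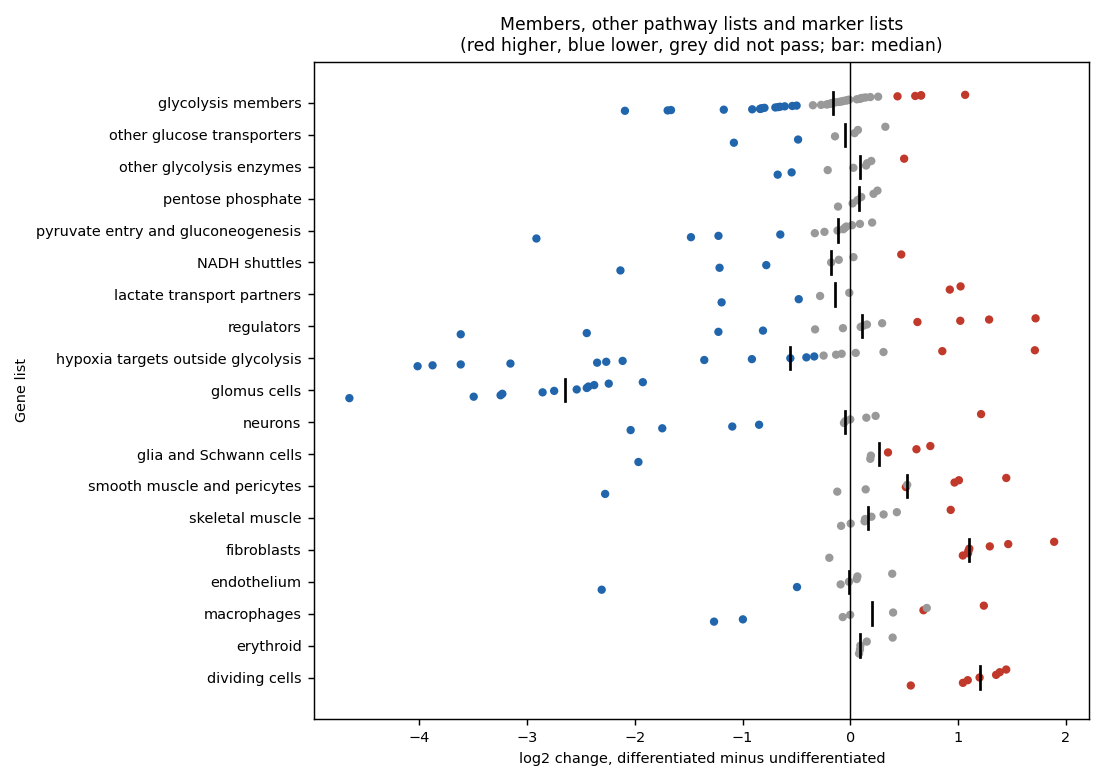
The log2 change of the 44 members, of the genes of 8 other pathway lists and of 10 marker lists, a point a gene, with red for genes that rose, blue for those that fell, grey for those that did not pass and a bar for the median. The glomus cell list lies entirely below 0 with a median of -2.64, the members around -0.16 and the dividing cell list entirely above 0 with a median of 1.20.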

How the data were processed

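Per the labels' protocols, biotin-labelled cRNA was made from 100 ng of total RNA and measured on Affymetrix arrays. The authors deposited log2 values of 29214 probe sets on each array; the base was inferred from the range of the values, and nothing used here states their background correction, normalization or software. Array medians lay between 5.05 and 5.13, and values were used as deposited. The number of arrays limits the precision. The platform's probe table gave 15310 probe sets a single symbol and 323 several, and 13581 were not listed there. By gene ID 99.8% of the single-symbol probe sets matched the GRCr8 gene table, with 0 symbols changed. Each gene kept its probe set of highest mean, and 6 members had several.

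All 6 arrays were fitted together with limma 3.58.1 under R 4.3.3 (lmFit; eBayes with trend; no block), with Benjamini-Hochberg adjustment over 14506 genes; the steps were tested on simulated data. Isoform pairs were compared by an exact two-sided permutation test. Promoter letters were searched on both strands in RefSeq windows of 250 bases, and figures were drawn with matplotlib 3.10.9. Every member is named, and of each pathway list at most the 2 genes of smallest p that passed in each direction. The members and lists were chosen with earlier results of these data known. Alternatives were a replicate block, quantile normalization, median centring, no dim genes, the mean or most variable probe set, older symbols, eBayes without trend or robust, a threshold of 0.01 and each array left out.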

Additional observations from a re-analysis of the deposited data

How the results depend on the processing

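The count of members that fell was 15 and lay within 13 to 16 under each alternative, and that of members that rose was 5 and lay within 3 to 6. At an adjusted p under 0.01 there were 3 rises and 13 falls, and with each array left out 3 to 5 rises and 13 to 16 falls; 3 rises were left without undifferentiated replicate 2 and without differentiated replicate 3. With the replicate number as a block the counts were 5 and 15. Arrays of the same number deviated from their group means with correlations of 0.09, 0.0678 and -0.0058 over all probe sets. Undifferentiated replicates 1, 2 and 3 correlated best with differentiated replicates 1, 2 and 1. The labels do not say whether arrays of the same number share a culture or batch. With 3 arrays a group these correlations cannot decide it. The block changed no call of a member. Of the 78 genes of the other lists 8 rose and 21 fell at 0.01. The median of all genes moved by under 0.04 with each scaling, while quantile normalization raised the changes of the bright genes Aldoa, Pgam1, Eno1, Eno2, Pkm and Ldha; the cause was not tested. Over all combinations of a member and an alternative, 699 kept direction and side of the threshold, 21 lost a call, 4 gained a call and 20 turned the sign, all 20 in members that did not pass. The sign turned for Slc2a8 with quantile normalization (0.00837), and otherwise when single arrays were left out, where the changes ran as follows: Slc2a4 -0.00336 to 0.27, Slc2a5 -0.17 to 0.028, Slc2a8 -0.079 to 0.033, Hk3 -0.14 to 0.12, Pfkfb4 -0.0233 to 0.16, Fbp2 -0.0533 to 0.24, Pgam2 -0.22 to 0.0786, Eno3 -0.14 to 0.0866, Pklr -0.0101 to 0.20, Ldhc -0.11 to 0.0307, Pdk2 -0.027 to 0.25 and Pdk4 -0.42 to 0.15. Of the isoform pairs, Eno1 minus Eno3 moved to 0.37 and Pkm minus Pklr to -0.07 with quantile normalization. With 3 arrays a group and no detection calls, small changes of dim genes could not be resolved.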
